A study of Mus musculus with 7 samples.

Results

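Asns encodes asparagine synthetase, the enzyme that makes asparagine from aspartate with glutamine as the nitrogen donor. It was followed in fasted mouse liver together with 9 other genes of the amino acid response, namely the transcription factors Atf4, Atf3 and Ddit3, the regulators Trib3, Chac1 and Sesn2, and the synthesis enzymes Phgdh, Psat1 and Aldh18a1. The members were all non-control array probes that carry 1 of these 10 gene names, which gave 13 probes of the 55681 on the array and 10 of 36492 gene names. Atf4, Phgdh and Psat1 had 2 probes each and the other genes 1. Asns was put in the group because it was higher in SHIVA livers on these same arrays, so its difference between genotypes is given as a description and carries no test. The other 9 genes were chosen for their place in the pathway.

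Liver RNA came from 3 WT and 4 SHIVA mice, each on an array of its own. All were C57BL/6 females of 8 to 12 weeks that had been fasted for 24 h before the liver was taken, so no fed liver was compared here. SHIVA mice descend from an ENU mutagenesis screen for low serum pantetheinase, and carry a Met to Arg change in the HMG domain, the DNA-binding part, of the transcription factor Sox17. The methods give all viable mutants as heterozygous. The change is in the germ line and is not limited to a cell type of the liver, and all SHIVA mice go back to 1 mutant line. The study asked how the mutation alters the response of the liver to fasting.

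When an amino acid runs short, uncharged tRNA activates the kinase GCN2, which phosphorylates the translation factor eIF2α. General translation then slows while the mRNA of Atf4 is translated more, and the ATF4 protein binds sites composed of a C/EBP part and an ATF part in the promoters of its targets, among them Asns, Trib3, Chac1 and Sesn2. Other eIF2α kinases feed the same branch from endoplasmic reticulum stress, heme shortage or viral RNA, which is why it is also called the integrated stress response. In liver the pathway is known for the answer to diets that lack an essential amino acid, and for secretion of the hormone FGF21. Since ATF4 is controlled largely through its translation, an array of mRNA does not read its activity directly.

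Sequences of the start site regions are shown because Asns is a standard example of a gene with such a site, and because the members differ in whether these letters are present near the start. RefSeq promoters of the build GRCm38.p6, from 250 bases before the annotated start to 50 after it, were found for all 10 members. They were searched on both strands for this site in the form TGATGNAAN, called CARE here, and for GTTACA, the partner element in the nutrient sensing unit of the Asns promoter, called NSRE-2. Among 32851 promoters of the same length, 3.95% held the CARE letters and 8.25% the NSRE-2 letters. In the members, 4 of 10 held CARE letters (Asns, Atf3, Chac1 and Trib3) and only Asns held NSRE-2 letters. The stretches below are printed 5′ to 3′ on the strand of the gene, with the CARE and NSRE-2 letters in capitals. They lie at chr6:7693190-7693459 on the minus strand for Asns, chr1:191183404-191183473 on the minus strand for Atf3, chr2:119351012-119351091 on the plus strand for Chac1 and chr2:152344031-152344100 on the minus strand for Trib3.
Asns: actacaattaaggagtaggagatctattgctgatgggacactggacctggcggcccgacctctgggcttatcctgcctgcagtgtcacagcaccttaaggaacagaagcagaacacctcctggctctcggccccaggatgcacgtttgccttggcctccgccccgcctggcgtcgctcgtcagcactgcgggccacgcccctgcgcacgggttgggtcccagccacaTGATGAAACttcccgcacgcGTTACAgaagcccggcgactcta
Atf3: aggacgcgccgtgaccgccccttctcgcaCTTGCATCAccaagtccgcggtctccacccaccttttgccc
Chac1: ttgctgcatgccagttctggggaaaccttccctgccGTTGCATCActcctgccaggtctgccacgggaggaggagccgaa
Trib3: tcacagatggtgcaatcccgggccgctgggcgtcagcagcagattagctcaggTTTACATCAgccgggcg
In the Asns promoter the CARE letters run from base -23 to -15 before the start and the NSRE-2 letters from -3 to 3, both on the strand of the gene. The CARE letters of Atf3 (-111 to -103), Chac1 (-194 to -186) and Trib3 (14 to 22, past the start) are on the opposite strand. A match is a run of letters and not a measured binding site, and these windows leave out sites farther away.

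Asns was the member with the largest difference between genotypes. Its probe lies at chromosome 6 from 7625171 to 7625228 on the minus strand of mm9, the build of the array design, and starts at base 1869 of the Asns transcript. On the log2 scale of quantile-normalised signal, Asns was at 4.00, 4.91 and 3.81 in the 3 WT mice and at 7.87, 7.05, 7.02 and 6.95 in the 4 SHIVA mice. Every SHIVA mouse was above every WT mouse, and the lowest SHIVA mouse was well separated from the highest WT mouse. Asns averaged 4.24 ± 0.59 (SD, n = 3) over the WT mice and 7.22 ± 0.44 (SD, n = 4) over the SHIVA mice. These means lie 2.98 apart in log2 signal, or 7.90-fold. Counting Asns, 8 of the 20012 genes compared had a difference of this size or more in the same direction, where the median of all genes was -0.01.

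The Asns signal in WT livers was dim, which bears on the size of the fold. Processed signals were 14.8, 26.1 and 13.7 intensity units in WT mice and 259, 149, 135 and 116 in SHIVA mice, each before normalisation between arrays. The probe was well above background on all 7 arrays by the scanner software. The mean spot signals, from which no background was taken, were 44.3, 55.9 and 41.2 in WT and 287, 175, 160 and 140 in SHIVA mice. The processed signal was below the mean signal on every array, and the size of the fold depended on the correction. It was 3.62-fold with the mean signal without correction and 2.65-fold with normexp correction, and the SHIVA livers were the brighter under both. No second Asns probe was on the array to read the gene at another position.

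**Figure D1:**
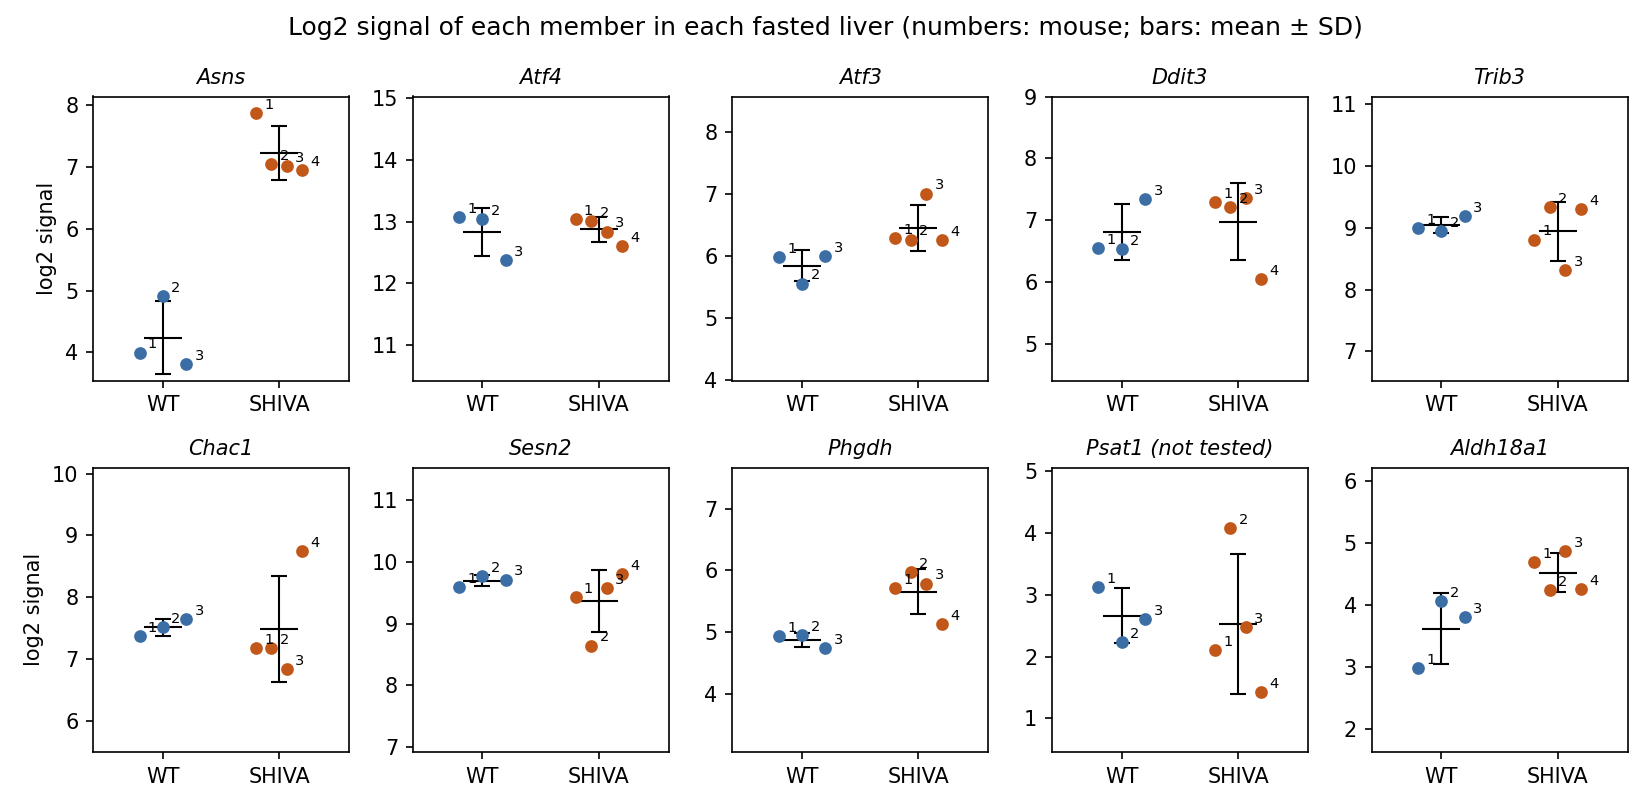
Log2 quantile-normalised signal (vertical axis) of each of the 10 genes in each WT (blue) and SHIVA (orange) mouse. The numbers name the mouse, the horizontal bars are genotype means and the whiskers SDs, and each panel has its own range of levels. Asns has the widest gap between genotypes, Atf3, Phgdh and Aldh18a1 do not overlap, and the other genes overlap.

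Beyond Asns, 8 members could be tested and none passed an adjusted p of 0.05 (limma, Benjamini-Hochberg over all 20012 genes). Of all genes, 0.375% were called, 0.185% higher and 0.190% lower in SHIVA livers. With Asns, 9 of the 10 members passed the filter on dim probes, and Asns is left out of the counts since its difference was used to choose it. At an unadjusted p under 0.05, 2670 genes passed in the same test. Among the 8 members the SHIVA mean was higher for 5 and lower for 3, against 48.8% of all genes with a higher SHIVA mean. The median difference of the 8 members was 0.11. In 3 of the 8 all SHIVA mice were above all WT mice, which was so for 6.15% of all genes, and in none were they all below, which was so for 6.02%. Liver RNA is a bulk sample, so fewer cells of a type and less RNA per cell cannot be told apart for any of these genes.

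Atf4, the central transcription factor of the response, showed no difference that the arrays could resolve. Its brighter probe (chromosome 15, 80087902 to 80087961, plus strand, mm9) read 13.07, 13.05 and 12.38 in WT mice and 13.04, 13.02, 12.84 and 12.61 in SHIVA mice. The WT range held all of the SHIVA values, and WT mouse 3 was the lowest of all. The difference was 0.04 (SE 0.21, 95% interval -0.44 to 0.52, limma adjusted p = 0.956 after Benjamini-Hochberg). The other Atf4 probe (80086639 to 80086698) averaged 9.37 ± 0.21 (SD, n = 3) over the WT mice and 9.19 ± 0.13 (SD, n = 4) over the SHIVA mice, a difference of -0.19. The signs of the probes were opposed, and that of the brighter probe turned under several alternatives.

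Atf3, a stress-induced factor of the same family that ATF4 can switch on, was higher in every SHIVA mouse without passing the test. It read 5.98, 5.55 and 5.99 in WT mice and 6.29, 6.27, 7.01 and 6.26 in SHIVA mice. SHIVA mouse 3 stood above the other SHIVA mice, which lay close together just over the WT range. The difference was 0.61, or 1.53-fold (SE 0.23, 95% interval 0.10 to 1.13, limma adjusted p = 0.294 after Benjamini-Hochberg). Without SHIVA mouse 3 it was 0.43.

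Ddit3 encodes CHOP, a factor tied to cell death under lasting stress. Its log2 signal was 6.55, 6.54 and 7.34 in WT mice and 7.29, 7.20, 7.36 and 6.04 in SHIVA mice. WT mouse 3 lay among the SHIVA mice and SHIVA mouse 4 below every WT mouse, so the genotypes overlapped. The difference was 0.17 (SE 0.35, 95% interval -0.63 to 0.97, limma adjusted p = 0.881 after Benjamini-Hochberg), and 0.48 without SHIVA mouse 4.

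Trib3, a pseudokinase that binds ATF4 and CHOP and damps their activity, read 8.997, 8.94 and 9.19 in WT mice and 8.81, 9.33, 8.32 and 9.31 in SHIVA mice. The SHIVA mice fell on both sides of the WT mice. The difference was -0.10 (SE 0.25, 95% interval -0.68 to 0.48, limma adjusted p = 0.904 after Benjamini-Hochberg). Chac1, which degrades glutathione and is a target of the ATF4, ATF3 and CHOP cascade, was at 7.37, 7.51 and 7.65 in WT mice and at 7.17, 7.18, 6.84 and 8.75 in SHIVA mice. SHIVA mice 1 to 3 were all below the WT mice and SHIVA mouse 4 was above them all. The difference was -0.02 with all mice (SE 0.41, 95% interval -0.96 to 0.91, limma adjusted p = 0.987 after Benjamini-Hochberg) and -0.45 without SHIVA mouse 4.

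Sesn2 encodes a leucine sensor that restrains the growth kinase mTORC1. It read 9.59, 9.78 and 9.71 in WT mice and 9.43, 8.65, 9.57 and 9.80 in SHIVA mice. SHIVA mouse 2 was the lowest by a clear distance and SHIVA mouse 4 the highest of all. The difference was -0.33 (SE 0.26, 95% interval -0.93 to 0.26, limma adjusted p = 0.638 after Benjamini-Hochberg), and -0.09 without SHIVA mouse 2. The probes of these 5 genes lie in mm9 at chromosome 1 from 192994547 to 192994606 (Atf3, minus strand), chromosome 10 from 126732518 to 126732821 (Ddit3, plus strand), chromosome 2 from 152163161 to 152163220 (Trib3, minus strand), chromosome 2 from 119179990 to 119180049 (Chac1, plus strand) and chromosome 4 from 132048858 to 132048917 (Sesn2, minus strand).

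Among the synthesis enzymes, Phgdh and Aldh18a1 were higher in every SHIVA mouse without passing the test, and Psat1 was too dim to be tested. Phgdh, which catalyses the step that commits 3-phosphoglycerate to serine, read 4.94, 4.95 and 4.75 in WT mice and 5.72, 5.97, 5.79 and 5.13 in SHIVA mice (chromosome 3, 98117215 to 98117274, minus strand). SHIVA mouse 4 lay closest to the WT mice. The difference was 0.77, or 1.71-fold (SE 0.21, 95% interval 0.30 to 1.25, limma adjusted p = 0.193 after Benjamini-Hochberg). The second Phgdh probe (98117303 to 98117361) was also higher on average, by 0.49, with overlap between the genotypes at 4.79 ± 0.42 (SD, n = 3) against 5.27 ± 0.48 (SD, n = 4).

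Aldh18a1 encodes the enzyme that starts proline synthesis from glutamate. Its log2 signal was 2.97, 4.07 and 3.81 in WT mice and 4.70, 4.24, 4.87 and 4.26 in SHIVA mice (chromosome 19, 40624730 to 40624767, minus strand). The 2 lowest SHIVA mice were only a little above WT mouse 2. The difference was 0.90, or 1.87-fold (SE 0.28, 95% interval 0.26 to 1.55, limma adjusted p = 0.235 after Benjamini-Hochberg). The probe was well above background on 2 of the 3 WT arrays and on all 4 SHIVA arrays, and with normexp correction the difference was 0.17, so its size depends on how background is handled. Psat1, the transaminase that follows Phgdh in serine synthesis, had 1 probe (chromosome 19, 15979622 to 15979681) well above background on SHIVA mouse 2 alone and another (15991586 to 15991645) on no array. Nothing is said of its change for that reason.

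**Figure D2:**
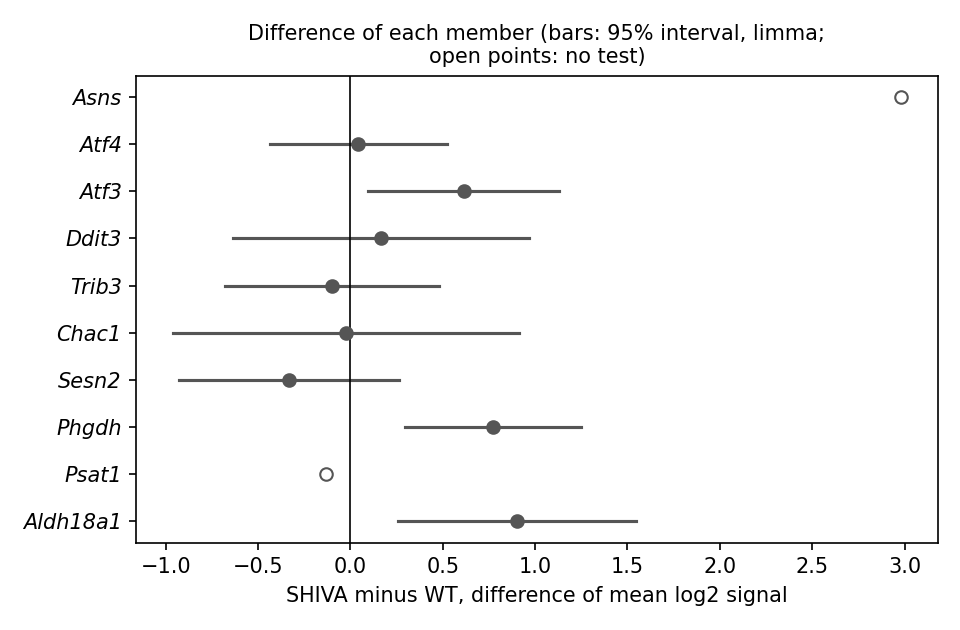
SHIVA minus WT difference of mean log2 signal (horizontal axis) for each of the 10 genes. Filled points carry 95% limma intervals and open points have no test (Asns was chosen on this contrast, Psat1 was too dim); Asns lies at 2.98, and the intervals of Atf3, Phgdh and Aldh18a1 lie above 0 without an adjusted p under 0.05.

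Asns and the other members did not order the SHIVA mice the same way. Taken as deviations from the genotype mean, SHIVA mouse 1 was highest for Asns (0.65), SHIVA mouse 3 for Atf3 (0.55) and SHIVA mouse 4 for Chac1 (1.27). SHIVA mouse 4, in turn, was lowest for Ddit3 (-0.93) and Phgdh (-0.52). The lowest values of Sesn2 (-0.72) and Trib3 (-0.62) fell in SHIVA mice 2 and 3. Of the 9 members tested, SHIVA mouse 4 was the lowest SHIVA mouse in 5 (55.6%), compared with 24.1% of all genes and 32% of 97 other pathway genes. These 5 include Asns, chosen from these same values, and all were read in the same livers, so nothing is read from the share. In WT mice, mouse 2 was highest for Asns (0.67 above the mean) while mouse 3 was highest for Ddit3 (0.53) and lowest for Atf4 (-0.45).

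**Figure D3:**
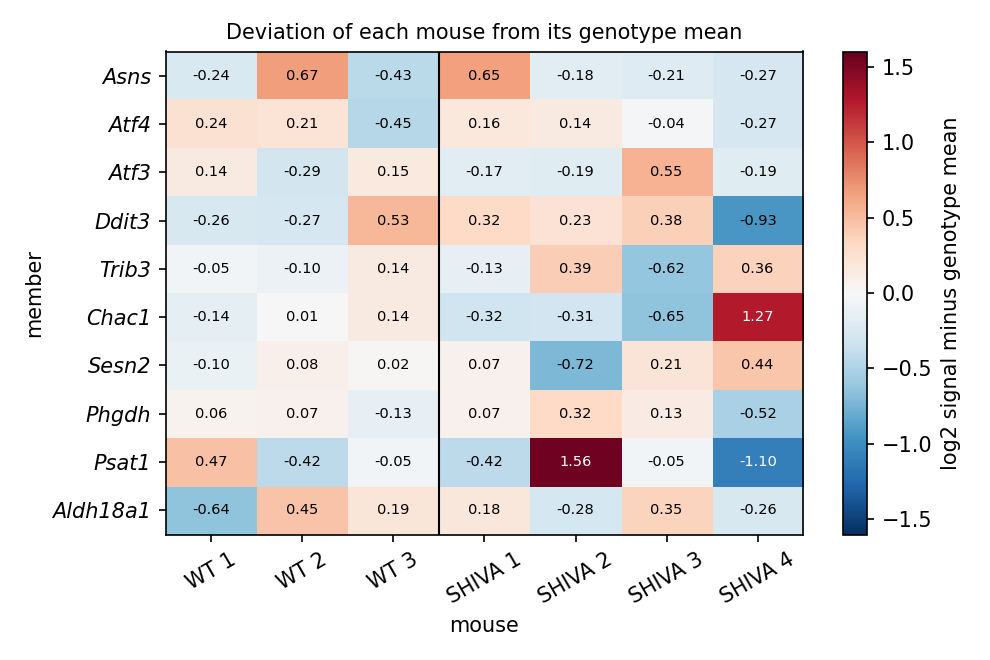
Deviation of each mouse (columns) from the mean of its own genotype, in log2 signal, for each of the 10 genes (lines of the grid). Red is above and blue below the genotype mean and the vertical line parts the genotypes. The largest deviations are those of Psat1 in SHIVA mouse 2 (1.56, a dim probe) and Chac1 in SHIVA mouse 4 (1.27), and no mouse has 1 colour throughout.

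The rest of the pathway was read from 8 lists of 106 genes without the members, of which 97 could be tested. No gene of these lists was called by limma at an adjusted p under 0.05, and 17 had an unadjusted p under 0.05. The methods' t-test also gave 0 and 17. The SHIVA mean was higher for 60 and lower for 37, with a median difference of 0.11. All SHIVA mice were above all WT mice in 13 of the 97 genes and below them in 5, against 6.15% and 6.02% of all genes. The lists share regulators and are not independent of each other.

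The signalling genes upstream of Asns differed little. For the 9 eIF2α kinases, phosphatase subunits and their regulators, no genotype ranges were separate and the median difference was 0.15. The largest differences were those of Ppp1r15b, the standing eIF2α phosphatase subunit (-0.36, adjusted p = 0.450 from limma), and Eif2ak1, the heme-regulated kinase (-0.21, adjusted p = 0.643 from limma). Eif2ak4, which encodes GCN2 and was named after its value was seen, differed by 0.16. Among 10 dimer partners and other factors linked to ATF4 the median was 0.00, with 5 genes higher and 5 lower. Nfe2l2, the factor of the antioxidant response, differed by 0.77 (adjusted p = 0.282 from limma) and Cebpb, a C/EBP partner of ATF4, by -0.31 (adjusted p = 0.701 from limma).

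The amino acid transporters were the pathway list whose median lay farthest from that of all genes. Of 14, 12 could be tested, 8 had a higher and 4 a lower SHIVA mean, and the median difference was 0.42. In 6 of them all SHIVA mice lay above all WT mice, which was so for 6.15% of all genes. Slc38a2, the system A carrier SNAT2 and itself a known target of the amino acid response, read 10.56, 10.87 and 11.43 in WT mice and 12.11, 11.94, 12.09 and 12.22 in SHIVA mice. The SHIVA mice were close together and all above the WT mice. Its difference was 1.13 (SE 0.21, limma adjusted p = 0.0779 after Benjamini-Hochberg). It passed the threshold with array weights, with the mean signal and with the authors' table, which has the rank order of the mean signal. It also passed without WT mouse 3 (1.37), the WT mouse nearest to the SHIVA mice, and under no other alternative. The other 5, named here after their values were seen, were Slc1a4 (0.81), Slc38a1 (0.61), Slc38a4 (0.55), Slc7a2 (0.54) and Slc7a1 (0.51). Slc6a9, the glycine carrier GLYT1, was below every WT mouse in all SHIVA mice (-1.04, limma adjusted p = 0.205 after Benjamini-Hochberg). Slc7a3 and Slc7a6 were not well above background on any array.

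Of 12 secreted and growth-related targets of ATF4, 9 could be tested, and Adm2 and Slc7a11 were not well above background on any array. Fgf21, the fasting hormone of the liver, was at 7.30, 7.76 and 4.58 in WT mice and at 4.37, 5.14, 3.77 and 4.48 in SHIVA mice. WT mice 1 and 2 were above the rest and WT mouse 3 lay among the SHIVA mice. The difference was -2.11 (SE 0.70, limma adjusted p = 0.250 after Benjamini-Hochberg), opposite in sign to that of Asns. Without WT mouse 3 it was -3.09, the only alternative under which Fgf21 was called. Leaving out the WT mouse nearest to the SHIVA mice widens the gap, so no test is read from that value. Vldlr, the very low density lipoprotein receptor, was higher in every SHIVA mouse (0.91, limma adjusted p = 0.133 after Benjamini-Hochberg).

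The tRNA synthetases, which charge tRNAs and hold many ATF4 targets, showed no common direction. Of 20, 19 were tested, with 9 higher, 10 lower and a median difference of -0.06. Cars, for cysteine, differed by 0.43 (adjusted p = 0.302 from limma) and Tars, for threonine, by 0.33 (adjusted p = 0.638 from limma). Among 11 tested genes of serine, one-carbon and proline synthesis, 6 were higher and 5 lower, and Mthfd1l, a mitochondrial folate enzyme, had the largest difference (1.58, SE 0.39, adjusted p = 0.151 from limma) with no overlap between genotypes, on a probe well above background on 2 of the 3 WT arrays. Pycr1, the last step of proline synthesis, differed by 0.60 (adjusted p = 0.627 from limma) on a probe that was well above background on 3 arrays.

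The enzymes that share substrates with asparagine synthetase varied in sign. Of 12, 7 were higher and 5 lower with a median difference of 0.12. Glul, glutamine synthetase, was lower in every SHIVA mouse (-0.78, adjusted p = 0.205 from limma). It was the only gene of the list without overlap on the lower side, and 1 gene had none on the higher side. Of all genes, 6.02% and 6.15% were so. Aspg, an asparaginase, and Asnsd1, a gene with a synthetase-like domain, were also named after their values were seen and differed by 0.29 and -0.06. Of 15 endoplasmic reticulum chaperones and folding factors, 13 had a higher SHIVA mean, with a median of 0.25. Edem1, which sends misfolded proteins to degradation, differed by 0.51 (adjusted p = 0.407 from limma) and Hspa5, the chaperone BiP, by 0.47 (adjusted p = 0.553 from limma), both with overlap.

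**Figure D4:**
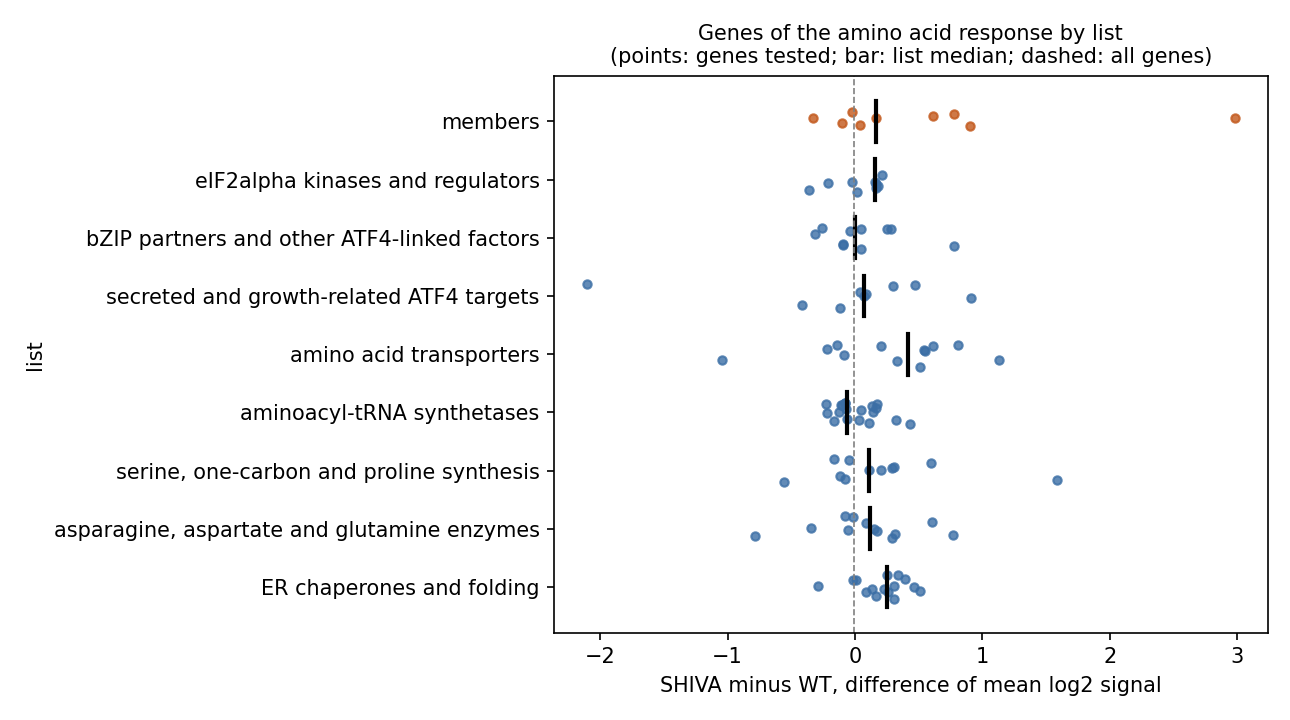
SHIVA minus WT difference of mean log2 signal (horizontal axis) of every tested gene in the members (orange) and in 8 lists of the pathway (blue). Black bars are list medians (that of the members includes Asns) and the dashed line is the median of all genes tested. Asns stands at 2.98 and Fgf21 at -2.11, the transporter median is 0.42, and the medians of the other pathway lists lie from -0.06 to 0.25.

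The promoter letters did not sort the members. Of the 3 other members with CARE letters, Atf3 differed by 0.61 without overlap, Trib3 by -0.10 and Chac1 by -0.02, both with overlap, while Phgdh and Aldh18a1 lacked the letters and did not overlap. In the other pathway genes that were tested and had a promoter in the table, 13 held CARE letters and had a median difference of 0.17, with 9 higher, 4 lower and 2 without overlap on the higher side. The 58 without the letters had a median of 0.11, with 37 higher and 21 lower, of which 6 and 4 had no overlap. Over all genes, 6.15% had no overlap on the higher side and 6.02% on the lower side.

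By the mean absolute difference of centred log2 values over the 7 arrays, the gene with the profile nearest to that of Asns was Clstn2 (0.25, where the median over 19962 genes was 1.46). Next came Angpt2, which encodes the vascular factor angiopoietin-2 (0.44), Esm1, an endothelial proteoglycan gene (0.55), Mmd2 (0.57), a lincRNA probe (0.57), Tmprss4, a membrane serine protease (0.59), an unnamed transcript (0.59) and Fst, follistatin (0.59). Clstn2 and the unnamed transcript were not well above background on any WT array and passed the filter through the SHIVA arrays, so their WT values have no order and their place in this ranking is uncertain. Against the lowest signal well above background on each WT array, they were at least 3.43-fold and at least 3.06-fold higher in SHIVA mice. Tmprss4 was well above background on 1 of the 3 WT arrays, and Angpt2 and the lincRNA probe on 2. The SHIVA minus WT difference was 2.15 for Angpt2, 3.65 for Esm1, 2.75 for Mmd2, 2.09 for the lincRNA probe, 3.83 for Tmprss4 and 1.85 for Fst. None of these genes was in a pathway list. The members lay farther away, with Aldh18a1 at place 328, Phgdh at 544, Atf3 at 1035, Ddit3 at 5355, Atf4 at 8490, Trib3 at 12677, Chac1 at 14492 and Sesn2 at 17316. Asns was picked for its rise and the measure spans both genotypes, so it ranks genes largely by a difference near that of Asns. The smaller differences of the members put them farther away by this measure, and their places are no separate result.

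**Figure D5:**
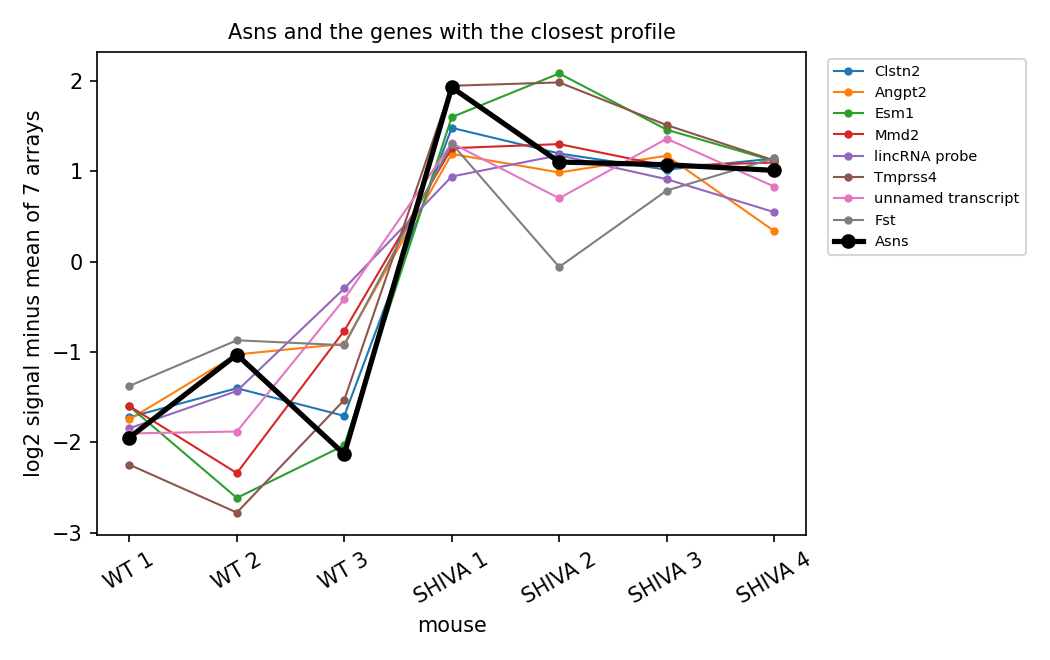
Log2 signal minus the mean over the 7 arrays (vertical axis) in each mouse (horizontal axis) for Asns (black) and the 8 genes with the nearest profile. Lines join the values of a gene and stand for no order of the mice. All 9 genes are below their mean in the 3 WT mice, and all but Fst are above it in the 4 SHIVA mice. Clstn2 and the unnamed transcript were not well above background in the WT mice.

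Across the whole array, 44.5% to 46.3% of probes were well above background in WT and 45.8% to 48.8% in SHIVA livers, and no spot was saturated. All arrays lay on 1 slide and 1 scan, with WT arrays in row 1 and SHIVA arrays in row 2, so place on the slide and genotype cannot be told apart. The label of liver held, with all 9 hepatocyte markers found on the array well above background and summed signals of 720100 to 784900 in WT and 680100 to 790300 in SHIVA mice. The tenth marker, Tf, was not found under that name.

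Asns is also strongly expressed in exocrine pancreas, and markers of other cells were therefore read beside it. Of 14 pancreatic acinar markers, 6 could be tested and 7 (Prss1, Prss2, Cpa1, Cpb1, Cela3b, Pnlip and Pnliprp1) were not well above background on any array. Their summed signal was 2182 to 2725 in WT and 2303 to 2974 in SHIVA mice. The largest difference was that of Cela2a (0.92, limma adjusted p = 0.145 after Benjamini-Hochberg). Cela2a was well above background on all 4 SHIVA arrays but on only 1 WT array, so the size of its difference is uncertain. Neutrophil markers had 7 of 8 means higher in SHIVA livers, against 48.8% of all genes. Their sums were 997 to 1841 in WT and 962 to 2942 in SHIVA mice, and Mpo had the largest difference. Like Mpo, Ngp and Ltf, named here after their values were seen, were well above background on no WT array. These genes passed the filter through SHIVA arrays alone, so they could only count as higher and no test is read from them. Mpo read 6.19 to 6.98 in SHIVA mice 1 to 3. It was not well above background in SHIVA mouse 4 or in any WT mouse, so no fold is given for the 4 SHIVA mice. Asns was at 6.95 in SHIVA mouse 4, and whether neutrophils have a part in its level was not tested. Macrophage markers were higher on average in 8 of 8, with sums of 18280 to 39130 against 25740 to 57020, and Marco differed by 1.54.

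The 4 proliferation markers tested, of 8, were all higher on average, with sums of 146 to 198 in WT and 164 to 531 in SHIVA mice. SHIVA mouse 2 was the highest of all mice for each of these 4. Mki67 differed by 1.101 (limma adjusted p = 0.318 after Benjamini-Hochberg), and was at 7.13 in SHIVA mouse 2 and at 5.08 to 5.73 in the other SHIVA mice. Endothelial markers summed to 15430 to 18620 in WT and 13130 to 15630 in SHIVA mice. Of the 7, 4 had a higher and 3 a lower SHIVA mean, with a median difference of 0.08. Lyve1 had the largest difference (0.79), opposite in direction to the sums. In the remaining lists the largest differences were Jchain (1.01) for B and plasma cells (7 tested markers higher, 1 lower) and Cd3d (0.28) for T cells (3 higher, 2 lower). They were Krt7 (-0.81) for bile duct (1 higher, 3 lower) and Col1a1 (0.61) for stellate cells (2 higher, 4 lower). For adipocytes it was Fabp4 (0.81), with 2 tested markers higher. A named gene therefore does not give the direction of its list. No marker of any of these lists was called by limma. The part of such cells in the values of Asns and the other members was not tested.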

How the data were processed

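Agilent one-colour arrays, 1 per mouse, were read by the authors with Feature Extraction 10.5.1.1. The deposited scanner files hold intensity per spot, detrended in space and by a multiplicative step, with surrogates for low signals, without local background subtraction and not normalised between arrays. The authors also deposited a table of log2 values, described as quantile normalised, which had the rank order of the uncorrected mean signal on every array (rank correlation 1) and a median of 5.23 on each.

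From the processed intensity, spots with an outlier mark (120 to 163 per array) were left out, values were quantile normalised over 7 arrays and put on the log2 scale, and spots of a probe were averaged. Array names were updated through RefSeq transcript accessions (26413 of 55681 probes). Each gene was read from its brightest probe on average, and was tested where 3 or more of the 7 arrays had that probe well above background. WT and SHIVA were compared with limma 3.58.1 (lmFit, eBayes) in R 4.3.3 and Benjamini-Hochberg adjustment over all genes. The call was an adjusted p under 0.05. The steps were tested on simulated data. Probe positions are those of the array files in mm9, and the number of arrays limits precision. The labels name separate mice.

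Members and lists were chosen with earlier results of these data known. Named were all members, and from each pathway list every called gene or otherwise the 2 tested genes with the largest absolute difference. From each cell type or proliferation list the gene with the largest difference was named, and the 8 genes nearest to Asns were added. Names outside these rules are marked in the text, and 1 gene within them is not reported here. Alternatives were scaling to the 75th percentile, normexp (offset 50), the mean signal without correction, the authors' table, no or a strict filter on dim probes, the mean of the probes or every probe, the replicate number as a block, array weights, the methods' t-test (unpaired), and leaving out each mouse. A batch could not be fitted since slide row and genotype coincide.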

Additional observations from a re-analysis of the deposited data

Results flagged for a closer look

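The SHIVA values of the 9 tested members were checked for 1 mouse apart from the other 3, that is, with a gap to its nearest neighbour over the group's range that passes the critical value of Dixon's test. Of 9 genes, 3 had such a mouse, where chance gives 0.45 if the values of a gene are normally spread. Asns, chosen from these same values, is among the 3, and all 9 genes were read in the same livers. Nothing is therefore read from the count. Asns was at 7.87 in SHIVA mouse 1 and between 6.95 and 7.05 in the others (0.9 of the range). Atf3 was at 7.01 in SHIVA mouse 3 and between 6.26 and 6.29 in the others (0.97 of the range). Ddit3 was at 6.04 in SHIVA mouse 4 and between 7.20 and 7.36 in the others (0.884 of the range). The 3 genes pointed to 3 different mice. With 3 mice, the WT group was not checked.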

How the results depend on the processing

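The difference of Asns, 2.98 in log2 signal, was 1.40 with normexp correction and 1.86 with both the uncorrected mean signal and the authors' table. It ranged from 2.76 (without SHIVA mouse 1) to 3.32 (without WT mouse 2) when mice were left out. The count of called members held Asns alone, which was chosen on this contrast, so nothing is read from it. It was 1, and 0 with no filter on dim probes, with the replicate block, with the methods' t-test and without WT mouse 1, a range of 0 to 1 over left-out mice. Called pathway genes, 0 with all mice, were 1 (Slc38a2) with the mean signal, the authors' table and array weights. They were 0 to 3 over left-out mice, the 3 without WT mouse 3 being Fgf21, Nfe2l2 and Slc38a2. For these 3 genes WT mouse 3 was the WT mouse nearest to the SHIVA mice, so nothing is read from the calls without it. Over all genes the 75 calls became 142 with the mean signal and with the authors' table, 13 with no filter, 32 with the replicate block, 268 with array weights and 0 with the methods' t-test, by which 2304 genes had an unadjusted p under its threshold. Left-out mice gave 3 to 415 calls, the ends being without WT mouse 1 and without WT mouse 3, and 8 without WT mouse 2, 7 without SHIVA mouse 1 and 13 without SHIVA mouse 3. The replicate numbers did not pair the mice (correlations of same-numbered mice of -0.05, 0.01 and 0.24), and with the block Asns differed by 3.07. No WT mouse shares the number of SHIVA mouse 4, so the block differences of the tested members equal those without that mouse. Of 144 values of the 8 other tested members under the 18 alternatives, 131 kept their direction and 13 turned it. Psat1, not tested, turned in 6 of 17. Atf4 turned to -0.019 with normexp and with the mean signal, -0.0012 with the authors' table and -0.072 with the mean of its probes and with every probe, and over left-out mice it ran from -0.18 (without WT mouse 3) to 0.16, turning also without SHIVA mouse 1 or 2. Over left-out mice Chac1 ran from -0.45 (without SHIVA mouse 4) to 0.19 (without SHIVA mouse 3), turning also without WT mouse 3 and SHIVA mouse 1 or 2, and Trib3 from -0.23 to 0.11 (without SHIVA mouse 3). None of the 143 of these 144 values that had a p was called, and the smallest limma adjusted p was 0.0669 for Phgdh. Psat1 had a p under 1 alternative, without a call. The cause of these shifts was not tested. Differences on dim probes (Asns in WT livers, Aldh18a1, Psat1) are limited by signal over background.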
